A study of Mus musculus with 6 samples.

Results

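The granzymes are serine proteases stored in the cytotoxic granules of killer lymphocytes, and 9 granzyme genes were rows of the count table of 11922 genes: Gzma, Gzmk, Gzmb, Gzmc, Gzmd, Gzme, Gzmf, Gzmg and Gzmm. They were the rows whose symbol belongs to the family, and no measured value entered this rule. RNA came from splenic CD8+ T cells of C57BL6/J mice, purified by magnetic sorting and activated with anti-CD3/anti-CD28 beads and recombinant human IL-2 at 100 units per ml. The vehicle group received water and the AOA group received 0.25 mM AOA (aminooxyacetic acid), an inhibitor of enzymes that use pyridoxal phosphate, the active form of vitamin B6. Cells were washed at 72 hours, expanded again in IL-2 with water or AOA, and lysed on day 7. Each group held 3 libraries from the same 3 mouse donors, and the labels name no genetic change in either group, so the libraries describe T cells cultured in IL-2 and not cells taken directly from a tissue.

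Granule exocytosis delivers granzymes into a target cell through pores made by perforin, and each granzyme cuts a different set of protein substrates. Granzyme B cuts after aspartate and starts apoptosis, granzymes A and K cut after basic residues, and granzyme M cuts after methionine or leucine. In the mouse the genes lie in 3 separate clusters: Gzma and Gzmk on chromosome 13, the large group from Gzmb to Gzmg on chromosome 14, and Gzmm on chromosome 10 among genes of neutrophil proteases. Naive CD8+ T cells hold little Gzmb, and activation with IL-2 is known to raise it, whereas the genes from Gzmc to Gzmg are known from lymphocytes kept in IL-2 for days.

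Total counts ranged from 12881962 to 18934869 with vehicle and from 18696114 to 21997078 with AOA. Across the 11759 genes that passed a filter on low counts, 3147 (26.8%) were lower and 3086 (26.2%) higher with AOA at an adjusted p under 0.05 in edgeR, and the median log2 fold change was -0.02. In a different measure, all 3 AOA libraries lay below all 3 vehicle libraries for 31.1% of these genes and above them for 31.0%. Vehicle replicate 2 stood apart for this family, with 0.659% of all its counts on the 9 genes against 0.175% and 0.216% in vehicle replicates 1 and 3. With AOA these shares were 0.127%, 0.137% and 0.0866%. Vehicle replicate 2 held 2.97 times as much Gzma as the mean of the other vehicle libraries, 2.92 times as much Gzmb, 5.74 times as much Gzmc and between 23.5 and 53.6 times as much Gzmd, Gzme, Gzmf and Gzmg, on the scale of counts adjusted to library depth (CPM). The granzyme results are therefore also given without it, a fit in which 27.9% of 11803 genes were called lower and 29.6% higher. In bulk RNA, fewer cells that express a gene and less RNA per cell cannot be told apart.

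The 3 clusters had different values with AOA. Both genes on chromosome 13 were called lower, Gzmc, Gzmd, Gzme and Gzmf on chromosome 14 were called lower while Gzmb beside them was not called, and Gzmm on chromosome 10 was called higher. By edgeR, 6 of the 9 genes were thus lower against 26.8% of all genes, 1 was higher against 26.2%, 1 was not called and 1, Gzmg, did not pass the filter on low counts. Gzmd, Gzme and Gzmf passed that filter only through the vehicle libraries where they were high, so the count of 6 is not support for them. With the mouse as a replicate block (26.9% of genes lower, 26.6% higher), 7 were called lower, Gzmb included. With DESeq2 (26.8% lower and 26.8% higher), 5 were called lower, Gzmg included. All 3 AOA libraries lay below all 3 vehicle libraries for 7 members, the untested Gzmg included, and above them for 1, against 31.1% and 31.0% of the genes tested. Gzmb was the member whose groups overlapped.

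**Figure D1:**
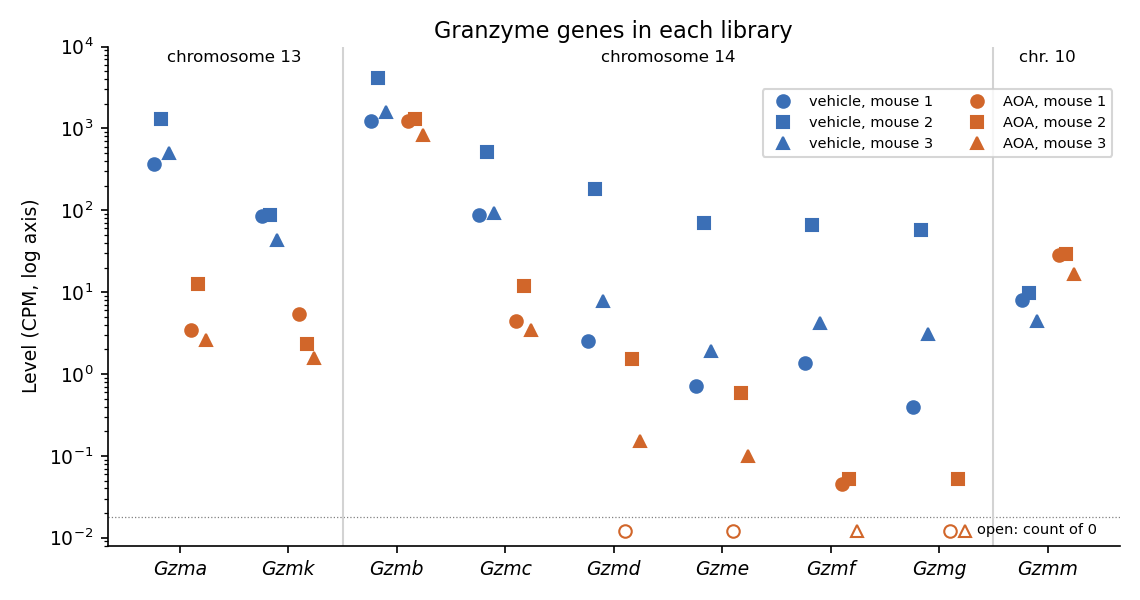
Level of the 9 granzyme genes in each of the 6 libraries, in CPM on a log axis, with vehicle in blue, AOA in orange, and a marker shape for each mouse. Open markers under the dotted line are counts of 0. Gzmb is the gene whose groups overlap, and Gzmm is the gene with all AOA libraries above all vehicle libraries.

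The chromosome 13 cluster spans 87142 bases on the minus strand, with Gzma at chr13:113093824-113100981 and Gzmk at chr13:113171630-113180965 (RefSeq, GRCm38.p6). Each gene has 5 exons, and their coding sequences are 64.5% identical. Gzma encodes the tryptase granzyme A, and Gzmk encodes granzyme K, a tryptase known from memory-like CD8+ T cells. The 130 bases before each RefSeq start site are shown because both genes fell together. Capitals mark the letters TGTGGT of a RUNX motif in Gzma and TCACAC of a T-box motif in Gzmk, both read here on the opposite strand.
Gzma (chr13:113100982-113101111, minus strand): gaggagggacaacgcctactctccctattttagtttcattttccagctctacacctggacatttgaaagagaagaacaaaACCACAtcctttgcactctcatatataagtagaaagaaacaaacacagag
Gzmk (chr13:113180966-113181095, minus strand): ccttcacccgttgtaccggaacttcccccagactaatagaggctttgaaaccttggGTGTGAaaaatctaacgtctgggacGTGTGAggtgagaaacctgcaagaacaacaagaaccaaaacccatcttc
On either strand, TGTGGT was present in 16.8% and TCACAC in 14.5% of 32851 RefSeq promoter windows of 300 bases, so a match describes the letters and not a bound site.

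Gzma had 372, 1286 and 495 CPM in vehicle replicates 1, 2 and 3 and 3.45, 12.7 and 2.62 CPM in AOA replicates 1, 2 and 3. The highest AOA library lay far below the lowest vehicle library, and the mouse with the most Gzma under vehicle also had the most under AOA. The log2 fold change was -6.85 (SE 0.75, adjusted p = 1.20e-04, edgeR), and the log2 ratio within mice 1, 2 and 3 was -6.71, -6.65 and -7.50. Without vehicle replicate 2 it was -6.09, and without AOA replicate 2, the highest AOA library, it was -7.87.

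Gzmk had 85.1, 86.5 and 43.9 CPM with vehicle and 5.47, 2.33 and 1.56 CPM with AOA. Here vehicle replicate 2 did not stand apart, and the groups did not overlap. AOA lowered Gzmk by a log2 fold change of -4.51 (SE 0.45, adjusted p = 7.60e-05, edgeR), -4.31 without vehicle replicate 2, and -5.20 without AOA replicate 1, the highest AOA library. Summed over both genes, the cluster held 457, 1373 and 539 CPM with vehicle and 8.92, 15.0 and 4.19 CPM with AOA, a log2 ratio of the group means of -6.40. Per length, as reads per kilobase of gene and depth (RPKM), the Gzma to Gzmk ratio was 3.94, 13.4 and 10.2 with vehicle and 0.569, 4.92 and 1.51 with AOA, so it overlapped between groups.

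Around this cluster, Esm1, which encodes the secreted proteoglycan endocan, was also lower. It lies 28694 bases beyond Gzmk and had 171, 684 and 222 counts with vehicle and 2, 2 and 0 counts with AOA. Its log2 fold change was -8.30 (SE 0.80, adjusted p = 6.56e-05, edgeR), and -7.42 without vehicle replicate 2. Esm1 passed the filter on low counts only through the vehicle libraries, where it was high. In GENCODE vM21 a transcript of Gzmk extends over Esm1 on the opposite strand, and no source used here states whether the counting used strand. Dhx29, an RNA helicase on the far side of Gzma, had a log2 fold change of 0.11 (adjusted p = 0.604, edgeR) and was not called. Gpx8, a peroxidase of the endoplasmic reticulum, was under the filter on low counts with 2, 42 and 9 counts with vehicle and 1, 1 and 0 with AOA. The other 3 of the 6 listed neighbors were not in the table.

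The chromosome 14 cluster spans 144716 bases, all on the minus strand. From Gzmb outward the order is Gzmb (chr14:56258836-56262334), Gzmc (chr14:56231397-56241647), Gzmf (chr14:56205263-56211407), Gzmg (chr14:56156581-56159579), Gzmd (chr14:56129556-56132603) and Gzme (chr14:56117619-56120625). Gzmc to Gzmg are close relatives. Their coding sequences were 76.2% to 95.03% identical, with Gzmd and Gzme the closest pair, and Gzmb was 73.0% to 78.4% identical to them. Gzmb encodes the main apoptosis-inducing granzyme, and Gzmc to Gzmg encode rodent granzymes that are less well characterized.

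Within the 5, the coding sequence of Gzmc was 76.2% to 76.9% identical to those of Gzmd to Gzmg, whereas these 4 were 86.2% to 95.03% identical to one another. The promoters divided in another way, with Gzmc close to Gzmd to Gzmg and Gzmb apart, so windows are shown for all 6. Over 300 bases around the start site, the 5 genes were 81.3% to 93.7% identical, whereas Gzmb was 53.7% to 57.7% identical to them. Each window of Gzmc to Gzmg below has 150 bases and starts 6 bases before its first capitals. The start of Gzmc lies inside its annotated span, at the start of a shorter transcript. The window of Gzmb is the 130 bases before its start. Capitals mark TGTGGT (RUNX) on either strand, TGACGT (CRE, whose matches on both strands overlap here), TGANTCA (AP-1) and TCACAC (T-box).
Gzmb (chr14:56262335-56262464, minus strand): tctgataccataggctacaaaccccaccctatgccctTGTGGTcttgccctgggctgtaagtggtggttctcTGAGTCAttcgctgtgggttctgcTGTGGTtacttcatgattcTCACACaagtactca
Gzmc (chr14:56234688-56234837, minus strand): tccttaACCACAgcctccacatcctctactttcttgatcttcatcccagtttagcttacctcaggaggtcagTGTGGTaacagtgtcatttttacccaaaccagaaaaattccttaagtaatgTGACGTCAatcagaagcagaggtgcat
Gzmf (chr14:56211459-56211608, minus strand): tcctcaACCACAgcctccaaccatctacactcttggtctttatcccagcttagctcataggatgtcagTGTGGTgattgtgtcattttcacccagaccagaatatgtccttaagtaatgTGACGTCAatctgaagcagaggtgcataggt
Gzmg (chr14:56159626-56159775, minus strand): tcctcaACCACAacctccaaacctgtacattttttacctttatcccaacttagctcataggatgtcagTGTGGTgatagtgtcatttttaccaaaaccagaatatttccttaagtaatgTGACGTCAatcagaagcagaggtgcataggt
Gzmd (chr14:56132624-56132773, minus strand): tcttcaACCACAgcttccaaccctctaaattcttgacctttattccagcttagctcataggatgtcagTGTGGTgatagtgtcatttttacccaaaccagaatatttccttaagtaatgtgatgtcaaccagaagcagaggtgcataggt
Gzme (chr14:56120657-56120806, minus strand): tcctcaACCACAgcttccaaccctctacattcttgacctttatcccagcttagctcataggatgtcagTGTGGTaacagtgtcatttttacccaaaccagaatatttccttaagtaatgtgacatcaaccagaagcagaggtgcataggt
A pair of RUNX letters stood in each of the 6 windows. The CRE letters stood in the windows of Gzmc, Gzmf and Gzmg and were not in those of Gzmd and Gzme. In Gzmb they occurred just after the start site, outside the bases shown. TGACGT was present in 7.51% and TGANTCA in 7.81% of all promoter windows. A STAT motif, TTCNNNGAA, present in 8.30% of promoters, was found downstream of the start of Gzmb and in no window of Gzmc to Gzmg. The absence of letters from these windows says nothing about binding elsewhere.

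Gzmb had 1233, 4093 and 1569 CPM with vehicle and 1241, 1298 and 829 CPM with AOA. AOA replicates 1 and 2 lay within the range of the vehicle libraries, so the groups overlapped, and the highest library was vehicle replicate 2. The log2 fold change was -1.03 (SE 0.41, adjusted p = 0.0605, edgeR) and was not called. Within mice 1, 2 and 3 the log2 ratio was 0.01, -1.66 and -0.92, lower in 2 of 3 mice. With the mouse as a replicate block the log2 fold change was -0.86 and Gzmb was called lower (adjusted p = 0.0304, edgeR), and it was also called without vehicle replicate 1 (-1.32, adjusted p = 0.0239) and without vehicle replicate 3 (-1.23, adjusted p = 0.0474). Without vehicle replicate 2 it was -0.28 (adjusted p = 0.307, edgeR).

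Gzmc, the next gene along, had 87.6, 519 and 93.2 CPM with vehicle and 4.41, 11.998 and 3.43 CPM with AOA. Every vehicle library lay above every AOA library. Its log2 fold change was -5.15 (SE 0.86, adjusted p = 0.00150, edgeR), -3.75 without vehicle replicate 2 (adjusted p = 8.61e-05), and -5.88 without AOA replicate 2. The RPKM ratio of Gzmb to Gzmc was 8.70, 4.88 and 10.4 with vehicle and 174, 66.9 and 149 with AOA, without overlap.

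Gzmd had 2.54, 181 and 7.71 CPM with vehicle and 0, 1.53 and 0.151 CPM with AOA. Vehicle replicate 2 held 2862 of the 3036 counts on Gzmd under vehicle. For Gzmd edgeR gave a log2 fold change of -6.88 (SE 2.10, adjusted p = 0.0329, edgeR), and -3.23 without vehicle replicate 2 (adjusted p = 0.0133). The call was lost with limma voom and without vehicle replicate 3 or any 1 of the AOA libraries, with adjusted p between 0.0591 and 0.160 over these fits, and the value moved to -9.65 without AOA replicate 2 and to -6.25 without AOA replicate 1.

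Gzme followed Gzmd, with 0.714, 70.1 and 1.90 CPM with vehicle and 0, 0.581 and 0.101 CPM with AOA. The lowest vehicle library, with 9 counts, and the highest AOA library, with 11, lay close together. The fitted log2 fold change was -6.76 (SE 2.20, adjusted p = 0.0410, edgeR), and -2.58 without vehicle replicate 2 (adjusted p = 0.0283). It lost its call in the same fits, with adjusted p between 0.0612 and 0.180 (edgeR and limma), and with library totals in place of normalization factors (0.0572). The value moved to -8.77 without AOA replicate 2 and to -6.14 without AOA replicate 1. DESeq2 gave neither Gzmd nor Gzme an adjusted p.

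Gzmf had 17, 1034 and 78 counts with vehicle and 1, 1 and 0 counts with AOA, or 1.35, 65.6 and 4.23 CPM against 0.0460, 0.0529 and 0 CPM. In edgeR the log2 fold change was -9.21 (SE 2.09, adjusted p = 0.00735, edgeR), a value that depends on how near-zero counts are handled. Pooled over libraries and scaled by library size, the ratio of vehicle to AOA was 730 with a 95% exact counting interval of 202 to 6034, and 92.6 (24.9 to 776) without vehicle replicate 2. The edgeR call was lost without AOA replicate 2 (adjusted p = 0.115) or AOA replicate 3 (adjusted p = 0.0844). GENCODE vM21 places the antisense gene Gm4022 over Gzmf, and the 2 could not be separated if strand was not used in counting.

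Gzmg had 5, 910 and 57 counts with vehicle and 0, 1 and 0 counts with AOA. It did not pass the filter on low counts, so it has no value in the edgeR fit. The pooled ratio of vehicle to AOA was 1257 (225 to 49685), and 121 (20.9 to 4852) without vehicle replicate 2. These intervals cover counting error only and not the spread between mice. Without the filter the log2 fold change was -9.75 (adjusted p = 0.0179, edgeR), and over the other fits that could include Gzmg the adjusted p ranged from 9.00e-05 to 0.231.

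Since near-identical copies can share reads, the 5 genes were also summed. Gzmc to Gzmg together held 92.6, 894 and 110 CPM with vehicle and 4.46, 14.2 and 3.68 CPM with AOA, a log2 ratio of group means of -5.62, -3.77 without vehicle replicate 2, and -6.49 without AOA replicate 2. With Gzmb added, the whole cluster held 1325, 4987 and 1679 CPM with vehicle and 1246, 1313 and 833 CPM with AOA, so the groups lay close together without overlapping, and most of the sum was Gzmb. In GENCODE vM21 transcripts, 5.73% of 75-base windows of Gzmd, 4.75% of Gzme and 6.83% of Gzmg occurred in another gene of the cluster, and none of Gzmb, Gzmc or Gzmf did.

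**Figure D2:**
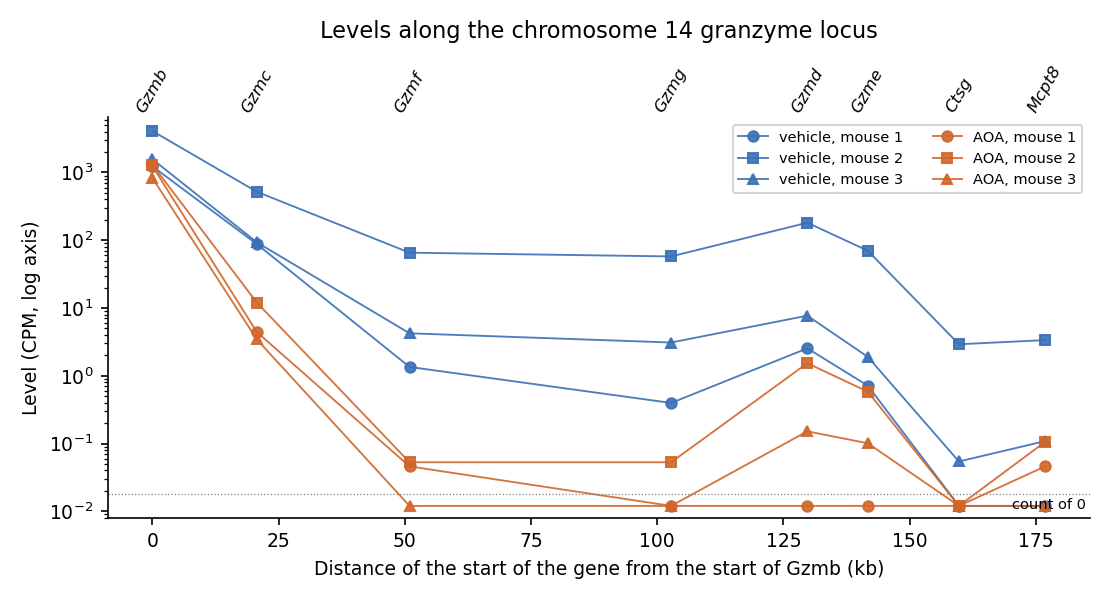
Level in CPM on a log axis of the chromosome 14 granzyme genes and 2 proteases beyond them, against the distance of each gene start from the start of Gzmb, with 1 line per library. At Gzmb the 6 libraries lie between 829 and 4093 CPM, the AOA lines lie below the vehicle lines at each gene from Gzmc to Gzme, and vehicle replicate 2 is the highest line at each gene.

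Beyond Gzme the same chromosome holds proteases of mast cells and neutrophils. The 9 listed neighbors were such genes and Gzmn, a granzyme gene inside the cluster that was not in the table. Of the 9, 3 were in the table, all under the filter on low counts. Ctsg, the neutrophil protease cathepsin G, lies 15045 bases beyond Gzme and had 0, 46 and 1 counts with vehicle and 0 in each AOA library. Mcpt8, a protease known from basophils, had 0, 53 and 2 counts with vehicle and 1, 2 and 0 with AOA. Cma1, a mast cell chymase, had 0, 28 and 2 counts with vehicle and 0 in each AOA library. Nearly all counts of these 3 genes were in vehicle replicate 2, the library that also stood apart for Gzmd to Gzmg. Among genes that mark mast cells, the table held Cpa3 and Hdc but none of Ms4a2, Fcer1a and Tpsb2. Cpa3, a mast cell carboxypeptidase, had 60, 309 and 49 counts with vehicle and 9, 11 and 2 with AOA. Hdc had 18, 11 and 16 counts with vehicle and 11, 11 and 10 with AOA, and was not called (adjusted p = 0.0996, edgeR). Unlike Cpa3, Hdc was lowest in vehicle replicate 2 among the vehicle libraries.

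Gzmm stands alone at chr10:79689020-79695261 on the plus strand and has 5 exons. It encodes granzyme M, known from NK cells and innate-like T cells. Its coding sequence was 61.0% to 65.7% identical to those of the other 8 members. The 130 bases before the first of its 2 RefSeq start sites are shown because Gzmm was the member called higher. Capitals mark the letters TTCNNNGAA of a STAT motif.
Gzmm (chr10:79688890-79689019, plus strand): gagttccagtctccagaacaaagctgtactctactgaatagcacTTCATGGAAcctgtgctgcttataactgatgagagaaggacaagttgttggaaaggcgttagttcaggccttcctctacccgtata
Further upstream at this start site RUNX letters were also found, and at the other start site only T-box letters.

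Gzmm had 7.94, 9.89 and 4.51 CPM with vehicle and 28.4, 29.0 and 16.9 CPM with AOA. All AOA libraries lay above all vehicle libraries, and mouse 3 was the lowest in both groups. Gzmm rose by a log2 fold change of 1.74 (SE 0.31, adjusted p = 0.00154, edgeR), and 2.05 without vehicle replicate 2. Within mice 1, 2 and 3 the log2 ratio was 1.83, 1.54 and 1.88, higher in 3 of 3 mice. Gzmm kept its call in every alternative run, as did Gzma, Gzmk and Gzmc.

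Genes near Gzmm moved in both directions. Of 10 listed neighbors, all on the side after Gzmm, 5 were tested, of which 3 were called higher and 1 lower. The list lacked the genes before Gzmm. Of these, Cdc34, 622 bases away, was at 0.55 (adjusted p = 0.0442, edgeR). Tpgs1, 12893 bases away, was at -0.55 and was not called (adjusted p = 0.0844, edgeR). Also not listed was Polrmt, after Gzmm, at 0.60 (adjusted p = 0.00611, edgeR). Hcn2, a pacemaker ion channel, had a log2 fold change of 1.75 (SE 0.32, adjusted p = 0.00184, edgeR; 2.08 without vehicle replicate 2) from 15, 30 and 20 counts with vehicle and 82, 91 and 110 with AOA. Bsg, which encodes the surface glycoprotein basigin, had 0.86 (SE 0.16, adjusted p = 0.00210, edgeR), and 1.06 without vehicle replicate 2. Within 300000 bases of Gzmm, a distance chosen after values had been seen, 18 protein-coding genes were tested, with 9 called higher and 4 lower, against 26.2% and 26.8% of all genes. Within the same distance of the chromosome 13 cluster 4 were tested, with 2 higher and 1 lower, and of the chromosome 14 cluster 4, with 1 higher and 2 lower.

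**Figure D3:**
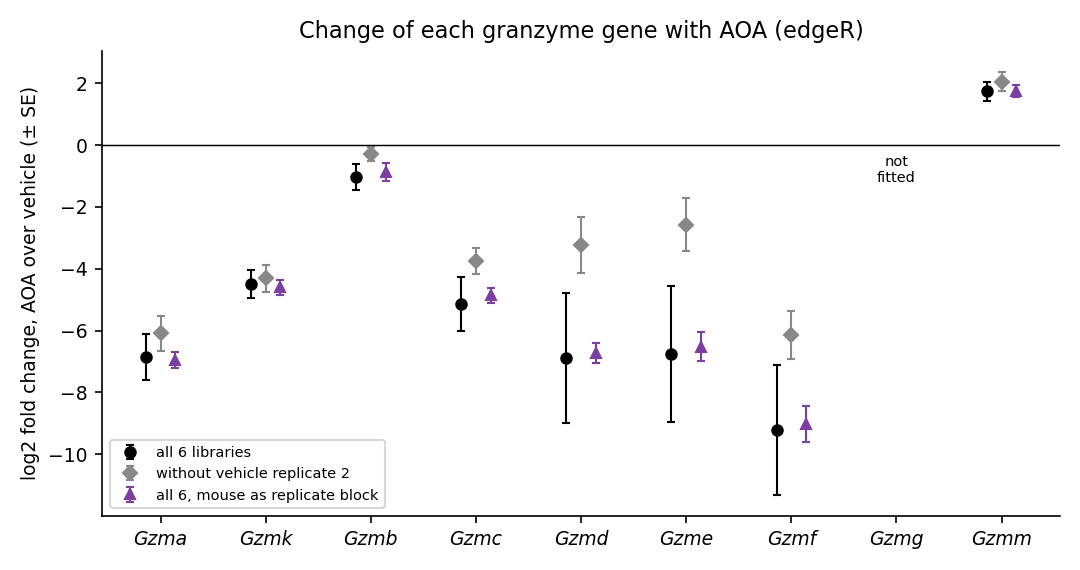
The log2 fold change of each granzyme gene, AOA over vehicle, from edgeR with its SE, for all 6 libraries (black), without vehicle replicate 2 (gray) and with the mouse as a replicate block (purple). Gzmg was not fitted. Leaving out vehicle replicate 2 moves Gzmd from -6.88 to -3.23 and Gzme from -6.76 to -2.58, and Gzmm stays above 0 in each fit.

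Levels can be ranked between genes per length. With vehicle, the mean RPKM over 3 libraries fell in the order Gzmb (1520 ± 1034, SD), Gzma (817 ± 565), Gzmc (249 ± 265), Gzmk (90.7 ± 30.6), Gzmd (68.2 ± 109), Gzme (26.2 ± 43.0), Gzmf (26.1 ± 39.9), Gzmg (22.4 ± 35.5) and Gzmm (5.30 ± 1.94). Each neighboring pair in this order overlapped between libraries, although Gzmb exceeded Gzma in all 3 libraries. With AOA the order was Gzmb (743 ± 169), Gzmm (17.6 ± 4.85), Gzma (7.12 ± 6.36), Gzmc (7.07 ± 5.01), Gzmk (3.94 ± 2.62), Gzmd (0.599 ± 0.901), Gzme (0.246 ± 0.337), Gzmf (0.0362 ± 0.0316) and Gzmg (0.0194 ± 0.0335). Gzmb was then apart from Gzmm and Gzmk from Gzmd, and the other neighbors overlapped. The last place of Gzmm with vehicle rested on vehicle replicate 2. In vehicle replicate 1 Gzmm, at 5.65 RPKM, lay above Gzmd (2.71), Gzmf (1.48), Gzme (0.774) and Gzmg (0.436), and in vehicle replicate 3, at 3.21 RPKM, it lay above Gzme (2.06). Among all 11922 genes Gzmb ranked 44 with vehicle and 95 with AOA by mean RPKM, and Gzma ranked 90 and 7014. The vehicle order without vehicle replicate 2, a choice made after the data had been seen, was Gzmb (mean of 927 RPKM, rank 82), Gzma (493, rank 135), Gzmc (96.7), Gzmk (81.4), Gzmd (5.47), Gzmm (4.43), Gzmf (3.07), Gzmg (1.92) and Gzme (1.42).

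The share of Gzmb in granzyme RNA differed between groups without overlap. Gzmb took 56.2%, 51.6% and 58.4% of the summed granzyme RPKM with vehicle and 95.8%, 94.2% and 96.3% after AOA treatment. Gzma took 29.2%, 27.9% and 31.7% with vehicle and 0.458%, 1.58% and 0.525% with AOA. The RPKM ratio of Gzmb to Gzma was 1.93, 1.85 and 1.84 with vehicle, nearly equal although vehicle replicate 2 held more of both, and it was 209, 59.4 and 184 with AOA. The ratio of Gzmm to Gzmk was 0.0526, 0.0645 and 0.0579 with vehicle and 2.93, 7.03 and 6.10 with AOA. With 3 libraries against 3 the smallest 2-sided exact permutation p is 0.1, so these ratios were given without a test.

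**Figure D4:**
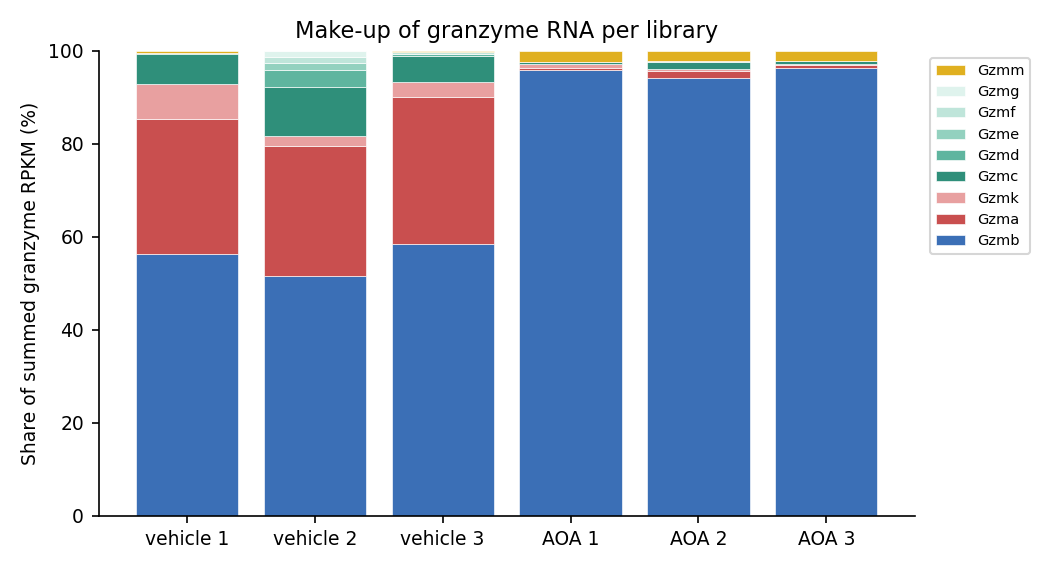
Share of each gene in the summed RPKM of the 9 granzyme genes, in percent, as 1 stacked bar per library. Gzmb fills 51.6% to 58.4% of the vehicle bars and 94.2% to 96.3% of the AOA bars, Gzma is the next largest block with vehicle, and Gzmm is the next largest with AOA.

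Granzymes act with other granule proteins, and the transcript of perforin, the pore-forming protein Prf1, was also lower with AOA. Prf1 had 603, 3587 and 821 counts with vehicle and 236, 220 and 269 with AOA, with vehicle replicate 2 again the highest. Its log2 fold change was -3.15 (SE 0.59, adjusted p = 0.00204, edgeR), and -1.91 without vehicle replicate 2. Of 20 listed granule companions 19 were tested, 10 were called lower and 1 higher, against 26.8% and 26.2% of all genes, and their median log2 fold change was -0.46 against -0.02 over all genes. Without vehicle replicate 2, 10 were lower and 5 higher, against 27.9% and 29.6% of all genes.

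By role, 2 serpins that inhibit granzymes come first. Serpinb9, which protects the cell from its own granzyme B, fell by 0.94 on the log2 scale (adjusted p = 0.00313, edgeR), and Serpinb6b, another serpin, fell by 3.41 (adjusted p = 5.25e-05, edgeR). Fasl, the death ligand that kills without granzymes, fell by 1.93, Lyst, which shapes lysosomes and granules, fell by 1.67, and Stx11, which serves granule fusion, fell by 1.29, with adjusted p of 1.69e-04, 3.10e-04 and 0.00400 in edgeR. Ctsc, the protease that removes the propeptide of granzymes, was the gene called higher, at 0.62 (SE 0.12, adjusted p = 0.00235, edgeR). Without vehicle replicate 2 these genes kept their calls, with log2 fold changes of -0.79 for Serpinb9, -3.64 for Serpinb6b, -1.89 for Fasl, -1.81 for Lyst, -0.94 for Stx11 and 0.66 for Ctsc.

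Regulators fell in part. Of 15 listed transcription factors, signal transducers and cytokine receptors, all tested, 9 were called lower and none higher, against 26.8% and 26.2% of all genes, with a median log2 fold change of -0.74 against -0.02. Without vehicle replicate 2 the counts were again 9 lower and 0 higher, against 27.9% and 29.6% of all genes. Prdm1, which encodes the effector factor Blimp-1, fell by 2.31 (SE 0.30, adjusted p = 2.77e-04, edgeR), and Tbx21, which encodes T-bet, fell by 0.74 (adjusted p = 0.00836, edgeR). Il12rb2, an IL-12 receptor chain, fell by 1.98, and Runx3, a RUNX factor of CD8+ T cells, fell by 1.29 (adjusted p = 9.00e-04 and 5.34e-04, edgeR). Id2, an inhibitor of helix-loop-helix factors, and Stat4, which signals for IL-12, fell by 1.20 and 1.08 (adjusted p = 0.0131 and 0.00877, edgeR). Eomes, a T-box factor related to T-bet, was at 0.04 (SE 0.23, adjusted p = 0.895, edgeR). The IL-2 receptor chains Il2ra and Il2rb were at 0.03 (SE 0.30) and -0.32 (SE 0.25) and were not called, with adjusted p of 0.950 and 0.314 in edgeR. Without vehicle replicate 2, Id2 was at -0.65, Prdm1 at -2.005, Tbx21 at -0.60, Il12rb2 at -2.23, Runx3 at -1.42 and Stat4 at -1.32, each still called lower, and Eomes, Il2ra and Il2rb were at 0.30, 0.32 and -0.11, not called.

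**Figure D5:**
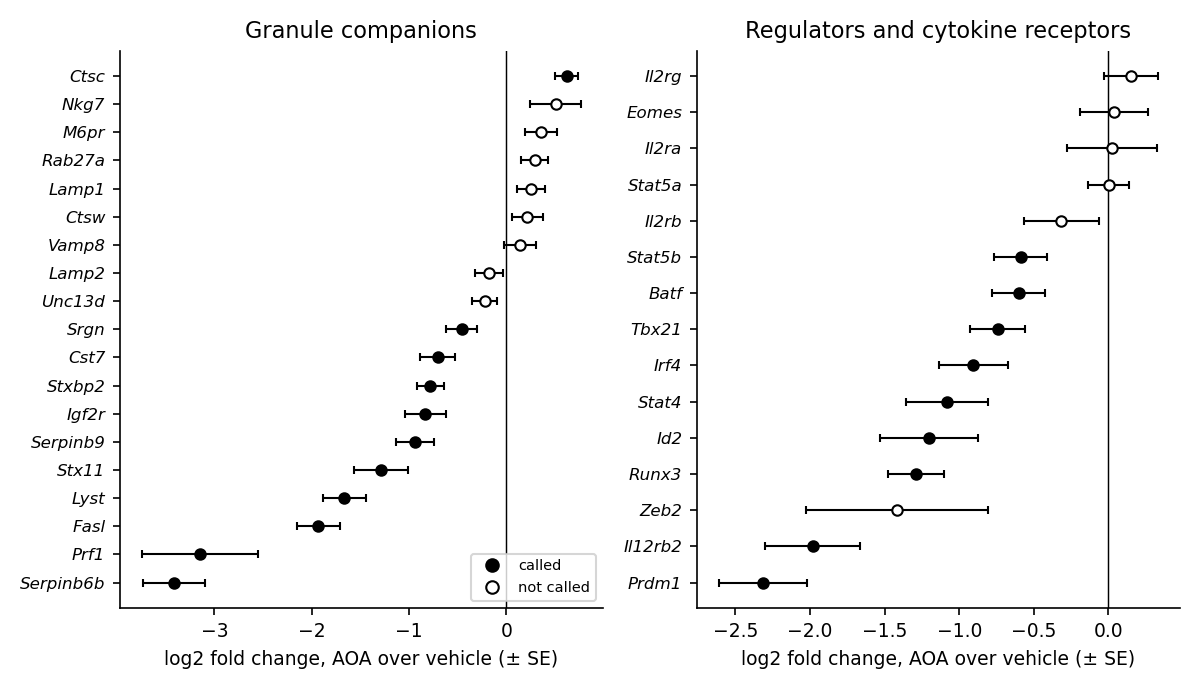
The log2 fold change, AOA over vehicle, with its SE from edgeR for 19 granule companions (left) and 15 regulators and cytokine receptors (right), with filled points for genes called at an adjusted p under 0.05. Serpinb6b (-3.41) and Prf1 (-3.15) are the lowest companions, Ctsc (0.62) is the filled companion above 0, and no regulator above 0 is filled.

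The purity of the cells was checked with marker lists. Markers of CD8 T cells were high throughout, summing to 2908 to 3737 CPM with vehicle and 3994 to 4644 CPM with AOA. Of the 5, Cd8a and Cd8b1 were called higher with AOA (1.03 and 0.64, adjusted p = 0.00128 and 0.0148, edgeR), whereas Cd3d, Cd3e and Cd3g were at -0.13, -0.27 and -0.31 and were not called. NK cells also express granzymes, and of their 5 markers all 4 that were tested were called lower, against 26.8% of all genes. Of these 4, Fcer1g overlapped between groups. The 5 markers summed to 70.4, 212 and 40.3 CPM with vehicle and 17.3, 23.9 and 10.04 CPM with AOA. The defining NK receptor Ncr1 had 0, 37 and 0 counts with vehicle and 5, 11 and 3 with AOA. Of the CD4 T cell markers 3 of 4 were lower, again against 26.8% of all genes, with a sum of 158 to 210 CPM with vehicle and 33.0 to 54.3 CPM with AOA. Of the 5 myeloid markers 2 were in the table, summing to 40.5 to 53.2 CPM with vehicle and 0.873 to 3.28 CPM with AOA. With vehicle nearly all of the sum came from Itgam, an integrin that activated CD8+ T cells also carry. In AOA replicates 1, 2 and 3 Itgam had 0.598, 2.11 and 0.908 CPM and Lyz2 0.276, 1.16 and 0.101 CPM. In counts, Lyz2 had 0, 5 and 0 with vehicle and 6, 22 and 2 with AOA. Of the 5 mast cell markers 2 were in the table, summing to 3.53 to 20.3 CPM and 0.605 to 1.16 CPM. The 4 B cell markers summed to 12.6 to 16.6 CPM with vehicle and 22.6 to 30.7 CPM with AOA. The part of these other cell types in the granzyme results was not tested.

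The genes whose log2 CPM followed each granzyme most closely over the 6 libraries were sought among 8754 genes with a mean of at least 10 CPM. This is a description, in which the group difference or a single library can carry much of the likeness. For Gzma these were Cdc14a, Zcchc18 and Gucy2e, each with Pearson r of 0.998. For Gzmb they were Dcun1d3 (0.983), Ppt1 (0.978) and Zfp518a (0.977). For Gzmd they were Irf8 (0.991), Snx33 (0.989) and Rab22a (0.989). Vehicle replicate 2 was the highest library in each gene matched to Gzmb or Gzmd, as it was for Gzmb and Gzmd themselves. For Gzmm they were Tnf (0.994), the gene of the cytokine TNF, Fastkd3 (0.993) and Trmt11 (0.993).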

How the data were processed

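RNA sequencing counts of 3 vehicle and 3 AOA libraries were used. The values are whole-number counts of uniquely mapped reads per gene, which the authors obtained after STAR alignment and deposited without normalization beside a gene length in bases. The submitters' processing notes name bcl2fastq, STAR, featureCounts, DESeq2 and mm10, whereas annotation, strand setting and gene filters were not stated. All columns of per-sample values (0 left out) were matched to a sample by title.

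Counts were analyzed in R 4.3.3 with edgeR 4.0.16: filterByExpr (minimum count 10), TMM factors, robust quasi-likelihood fit on the whole table, Benjamini-Hochberg adjustment and a threshold of 0.05. The SE was derived from the fold change and its F statistic. CPM used TMM library sizes, RPKM divided CPM by the deposited length, and log2 CPM and ratios within mice used a prior count of 2. Alternatives were DESeq2 1.42.0, limma 3.58.1 (voom), other scalings and filters, the mouse as a block, and each library left out. Replicates differed by more than sampling noise (chi-square per gene 10.02 to 71.1).

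Pairing comes from the labels, which give the same mouse donors to both groups. Deviations from group means correlated across genes at 0.0868, 0.189 and 0.194 within mice 1, 2 and 3. Members and lists were chosen with earlier results of these data known. Named genes were the 9 members, a fixed set of 8 companions and regulators, up to 4 more called members per direction of each list and 2 called neighbors per cluster, by size of change, and 3 most similar genes for Gzma, Gzmb, Gzmd and Gzmm. Unnamed members of the lists, unlisted neighbors of Gzmm and markers given as values were chosen after values were seen. Sequences, coordinates and motif shares came from RefSeq (GRCm38.p6) and transcripts from GENCODE vM21. The fitting steps were tested on simulated data.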

Additional observations from a re-analysis of the deposited data

How the results depend on the processing

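Gzma, Gzmk, Gzmc and Gzmm kept their direction and call in every alternative run, whereas the calls of Gzmb, Gzmd, Gzme and Gzmf depended on single libraries. The count of granzyme genes called lower was 6, fell to 3 with a filter of at least 10 CPM in 3 libraries, which removed Gzmd, Gzme and Gzmf, was 4 with limma voom, and ranged from 3 to 8 when each library was left out, while 1 was called higher throughout. When each library was left out, companions called ranged from 10 to 15 and regulators from 7 to 9, and the log2 ratio of summed levels ranged from -6.91 to -5.73 for Gzma and Gzmk, from -1.56 to -0.41 for Gzmb to Gzmg, from -6.49 to -3.77 for Gzmc to Gzmg, and from 1.47 to 1.99 for Gzmm. With the mouse as a replicate block, Gzmb (-0.86, adjusted p = 0.0304, edgeR) and Zeb2 (-1.40, adjusted p = 0.0162) gained a call, Srgn (-0.45, adjusted p = 0.0550) lost its call, and no other call on the granzymes, companions or regulators changed. Il2ra, at 0.03 with all libraries and not called in any fit, turned to -0.0075 with voom, -0.011 with the stricter filter and -0.014 with the replicate block and ranged from -0.36 to 0.32 when each library was left out, and Eomes from -0.19 to 0.30. Id2 lost its call without AOA replicate 2 or 3 and Stat4 without AOA replicate 1. The cause was not tested. Depth limits Gzmf and Gzmg, with 2 and 1 counts over the AOA libraries.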
